A study of Mus musculus with 33 samples.

Results

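The data described here are poly(A) RNA libraries from the hippocampus of mice without n-Tr20, a tRNA of neurons, set against those of mice with it. The libraries were taken by their titles, which name the hippocampus RNA of the knockout (B6N_nTr20_del) and of its control strain (B6N), and they make up 6 of the 33 samples of the series. The knockout group holds 3 libraries of genotype n-Tr20 -/- and the B6N group 3 libraries of genotype wild-type n-Tr20. In both groups the strain label is C57BL/6NJ, the tissue hippocampus and the age 8 weeks, and no other allele or treatment is named. The column headers of these files and part of the protocol text call the mice B6JN, so their background is less certain than the strain label states. The series also holds forebrain RNA from the same pair of genotypes (4 and 4 libraries) and ribosome footprints from hippocampus (3 and 3 libraries), used below only beside the hippocampus RNA, as well as forebrain RNA of other genotypes that was not used here. The files list 54752 genes, of which 19352 passed the filter on low counts and were tested.

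n-Tr20 is an arginine tRNA that reads the AGA codon and is made mainly in the nervous system. Cells answer a shortage of charged tRNA and stalled ribosomes by phosphorylating the initiation factor eIF2, which slows translation in general and raises translation of the transcription factor ATF4. ATF4 in turn drives genes that make, import and charge amino acids, and this program is called the integrated stress response. The hippocampus is made up of dentate granule cells, pyramidal cells of fields CA1 to CA3 and several classes of inhibitory interneurons, with glia and vessels around them.

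Library totals were 60426608, 42141609 and 35825476 counts in knockouts 1 to 3, against 41051208, 49535255 and 42242750 counts in B6N 1 to 3. All 6 libraries carry the label of batch 3, so no split by batch was possible. The defining hippocampus markers were detected in every library: Prox1, a factor of dentate granule cells, lay between 118 and 186 CPM (counts per 1000000) in the knockout and between 87.6 and 152 CPM in B6N, and the CA1 gene Fibcd1 between 121 and 240 CPM in the knockout and between 102 and 223 CPM in B6N. Knockout 1 was female, with Xist at 1243 CPM, and the other 5 libraries were male. Neighbouring tissue was unequal within both groups. Ttr, the transthyretin gene of the choroid plexus, was at 1489, 44.2 and 3697 CPM in knockouts 1 to 3 and at 2500, 130 and 68.7 CPM in B6N 1 to 3. B6N 2 stood apart in thalamus markers, whose sum was 538 CPM there, 230 to 253 CPM in the other B6N libraries and 218 to 237 CPM in the knockout. It also held the most red blood cell RNA, 163 CPM, against 43.9 to 63.2 CPM in the other 5 libraries. Gh, the growth hormone gene of the pituitary, was at 15.4, 4.81 and 123 CPM in the knockout and at 0.51, 0.99 and 0.07 CPM in B6N. Those groups did not overlap, and the difference did not pass the quasi-likelihood test of edgeR (Benjamini-Hochberg adjusted p = 0.543) but passed that of DESeq2 (adjusted p = 0.00227). The labels do not say that each library came from a separate animal, so the p-values measure the spread between these libraries.

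The knockout label had no direct check, since libraries of longer RNA do not count a tRNA. The annotation of mm10 (GRCm38) lists n-Tr20 under the name n-TRtct5 at chr1:173390329-173390402, within the span of Aim2 and 22190 bases from the end of Cadm3. Cadm3, an adhesion molecule of neurons, was at 809, 781 and 637 CPM in knockouts 1 to 3, against 518, 506 and 489 CPM in B6N 1 to 3. All 3 knockout libraries lay above all 3 B6N libraries, but the log2 fold change of 0.56 ± 0.09 (SE) did not pass the test (adjusted p = 0.151), whereas DESeq2 gave an adjusted p of 5.49e-06 for a change of 0.56. In forebrain the same comparison gave 0.01 ± 0.03 for Cadm3, and in hippocampus footprints -0.13 ± 0.12. Aim2, a sensor of cytosolic DNA, averaged 1.82 ± 0.229 CPM in the knockout and 2.202 ± 0.25 CPM in B6N (SD, n = 3 each), with a log2 fold change of -0.27 ± 0.18 (adjusted p = 0.746). Ackr1, a chemokine receptor whose gene overlaps Cadm3, was at 0.31 ± 0.09 (adjusted p = 0.446). The kit does not mark the strand, so reads in the stretches these genes share cannot be assigned to 1 of them.

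In the knockout hippocampus 6 genes rose and 2 fell. Those that rose were Atf4 itself, the stress genes Chac1 and Mthfd2, the amino acid transporter gene Slc7a3, the tRNA synthetase gene Cars and the neuropeptide gene Cort, and those that fell were Ndnf, an interneuron marker, and Col19a1, a collagen gene. They are 0.0413% of the 19352 genes tested (0.031% higher and 0.0103% lower) that passed the quasi-likelihood test of edgeR with an adjusted p (Benjamini-Hochberg) under 0.05, which is what "called" means below. In all, 1536 genes, the 8 included, had an unadjusted p under 0.05 (7.94%), 642 of them higher (3.32%) and 894 lower (4.62%), and DESeq2 called 134 genes (0.692%), 51 higher (0.264%) and 83 lower (0.429%), among them all 8. Several genes given below as not called, such as Garnl3, Gad2, Mog and Scd1, were among the 134 of DESeq2. The number of calls by edgeR rests on single libraries: without knockout 3 it was 0 (1134 genes at an unadjusted p under 0.05), without B6N 3 it was 1, a gene not among the 8, and without B6N 2 it was 3. Each of the 8 lost its call in 2 to 4 of the 6 fits that left out 1 library, while no direction was reversed.

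**Figure D1:**
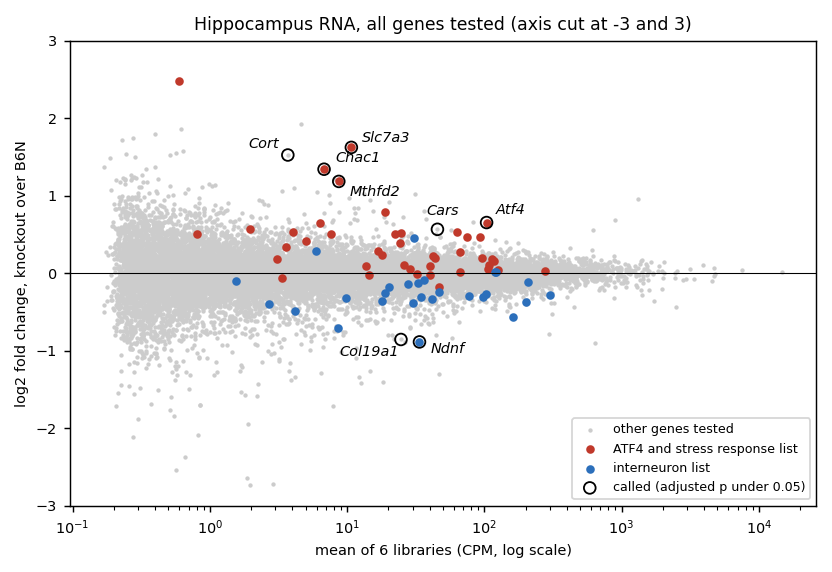
Each point is a gene tested in hippocampus RNA, with its mean over the 6 libraries in CPM on a log axis and its log2 fold change, knockout over B6N, on the vertical axis. The 8 called genes are ringed and named; red points are the ATF4 and stress response list (median 0.26) and blue points the interneuron list (median -0.28), and genes beyond -3 or 3 lie outside the axis.

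Atf4 (ENSMUSG00000042406.8, chr15:80255184-80257545), which encodes the central transcription factor of this program, was at 121, 131 and 128 CPM in knockouts 1 to 3, against 86.7, 73.9 and 81.7 CPM in B6N 1 to 3. The lowest knockout library lay well above the highest B6N library, and the rise was 1.57-fold, or 0.65 ± 0.07 (SE) as a log2 fold change (adjusted p = 0.0123, quasi-likelihood test of edgeR, Benjamini-Hochberg adjustment). Chac1 (ENSMUSG00000027313.3, chr2:119351242-119354326), an enzyme that degrades glutathione, was at 10.7, 9.94 and 8.61 CPM in the knockout, against 3.70, 3.58 and 4.27 CPM in B6N. It rose 2.53-fold in libraries that did not overlap between the groups (1.34 ± 0.13, adjusted p = 0.0101). Mthfd2 (ENSMUSG00000005667.8, chr6:83305704-83326011), which encodes an enzyme of folate metabolism in mitochondria, was at 12.5, 11.9 and 11.9 CPM in the knockout, against 4.92, 5.84 and 5.20 CPM in B6N. It had the narrowest knockout group of the genes that rose, 12.1 ± 0.346 CPM against 5.32 ± 0.469 CPM in B6N (SD, n = 3 each), and rose 2.27-fold (1.18 ± 0.11, adjusted p = 0.00923).

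Slc7a3 (ENSMUSG00000031297.14, chrX:101079146-101090452), a transporter of arginine, lysine and other cationic amino acids, was at 19.997, 12.8 and 15.9 CPM in knockouts 1 to 3, against 5.75, 4.67 and 5.41 CPM in B6N 1 to 3. It showed the greatest rise of the 8 called genes, 3.08-fold (1.62 ± 0.17, adjusted p = 0.0123), and the highest value came from knockout 1, the female library. Among the 5 male libraries the difference of mean log2 CPM was 1.44. Slc7a3 overlaps Snx12, whose log2 fold change was 0.10 ± 0.07 (adjusted p = 0.747), and their shared reads cannot be told apart without strand. Cars (ENSMUSG00000010755.17, chr7:143557230-143600090), which charges tRNA with cysteine, was at 53.4, 53.5 and 56.2 CPM in the knockout, against 36.9, 35.5 and 37.9 CPM in B6N. The groups were far apart relative to their spread, and Cars rose 1.48-fold (0.57 ± 0.06, adjusted p = 0.0123). With replicate number as a block, the calls of Atf4 (adjusted p = 0.0625) and Cars (adjusted p = 0.0843) ended.

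**Figure D2:**
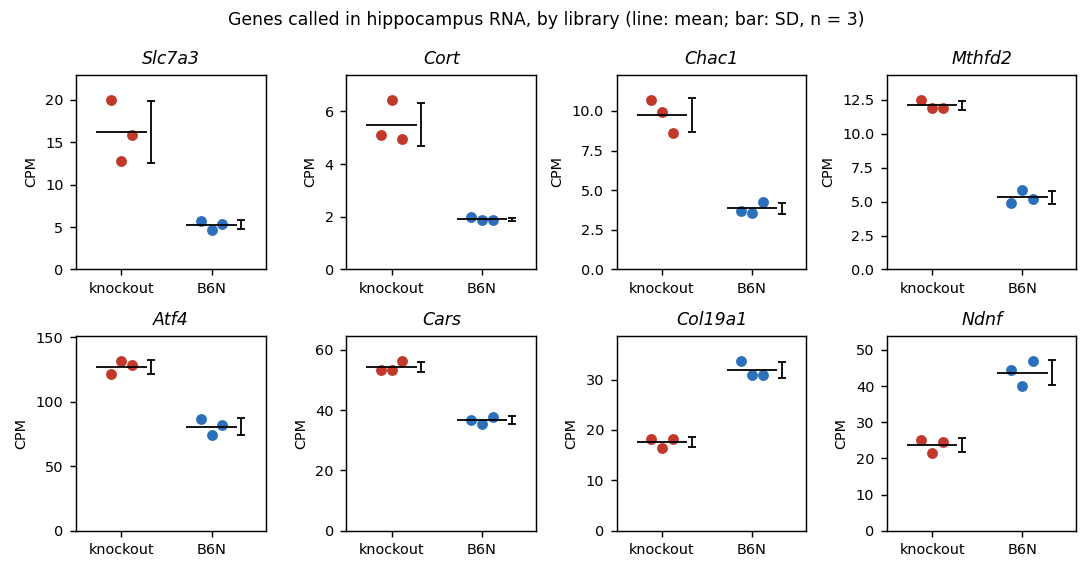
Each panel is a called gene, with each library's level in CPM as a point (knockout left, B6N right), the mean as a line and the SD of 3 libraries as a bar. In all 8 panels the 3 knockout libraries are separate from the 3 B6N libraries; Slc7a3 has the widest knockout group, 12.8 to 19.997 CPM.

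The libraries high and low in Ttr are given apart as a description, since 1 group has a single library on each side and no test can be made. Between the libraries high in Ttr (knockouts 1 and 3, B6N 1) the difference of mean log2 CPM was 0.52 for Atf4, 1.63 for Slc7a3, 1.37 for Chac1, 1.31 for Mthfd2, 0.57 for Cars and 1.35 for Cort. Between the libraries low in Ttr (knockout 2, B6N 2 and 3) it was 0.76 for Atf4, 1.35 for Slc7a3, 1.35 for Chac1, 1.11 for Mthfd2, 0.55 for Cars and 1.78 for Cort. For the genes that fell, it was -0.85 (high Ttr) and -1.01 (low Ttr) for Ndnf and -0.89 and -0.92 for Col19a1.

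Across the wider stress program 37 of 42 genes had a positive change, and most did not pass the test. Of 44 genes in the list of ATF4 and integrated stress response targets, 42 were tested and Fgf21 and Gdf15 did not pass the filter. Of the 42, 4 were called higher (Atf4, Chac1, Mthfd2 and Slc7a3) and none lower by edgeR, and DESeq2 called 12 higher and none lower. In 24 genes all 3 knockout libraries lay above all 3 B6N libraries and in none below, where 7% of all genes tested lay above and 7.4% below. The median log2 fold change of the list was 0.26, against 0.00 for all genes tested, and between 0.21 and 0.29 under the alternatives tried. The summed level of the 42 genes was 2131, 2055 and 2023 CPM in knockouts 1 to 3, against 1808, 1777 and 1778 CPM in B6N 1 to 3. The list was chosen because ATF4 is known to drive these genes and with earlier results of these data known, so its direction is no independent evidence.

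The genes of this program that stayed short of the threshold span its branches. Atf5, a stress transcription factor, was at 26.8, 25.0 and 19.9 CPM in the knockout, against 12.3, 15.4 and 13.9 CPM in B6N (0.79 ± 0.12, adjusted p = 0.135), and it overlaps Nup62. Asns, which makes asparagine, was at 99.1, 114 and 111 CPM in the knockout, against 81.0, 72.4 and 81.8 CPM in B6N (0.46 ± 0.07, adjusted p = 0.132). Aldh18a1, the first enzyme of proline synthesis, was at 30.1, 29.5 and 27.9 CPM in the knockout, against 22.1, 19.7 and 19.2 CPM in B6N (0.52 ± 0.08, adjusted p = 0.0976). In all 3 genes the groups did not overlap. Sesn2, a stress-induced inhibitor of mTORC1, had a log2 fold change of 0.50 ± 0.08 (adjusted p = 0.138). The next genes were chosen after their values were seen. Trib3, a pseudokinase induced by ATF4, was at 0.86, 0.76 and 1.45 CPM in the knockout, against 0.15, 0.24 and 0.14 CPM in B6N, the largest log2 fold change of the list and the least precise among its 5 largest (2.48 ± 0.37, adjusted p = 0.0976). The mitochondrial folate enzymes Aldh1l2 and Shmt2 had changes of 0.64 ± 0.11 and 0.38 ± 0.07. Ddit3, which encodes the stress factor CHOP, was at 19.9, 18.9 and 19.6 CPM in the knockout, against 16.4, 16.7 and 16.3 CPM in B6N, a separation of the groups with a change of only 0.24 ± 0.07 (adjusted p = 0.432). Ddit3 overlaps Mars and Mbd6, and Shmt2 overlaps Ndufa4l2, so shared reads cannot be told apart without strand. Slc7a11, the cystine transporter gene, had the lowest value of the list, -0.18 ± 0.21, in groups that overlapped.

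**Figure D3:**
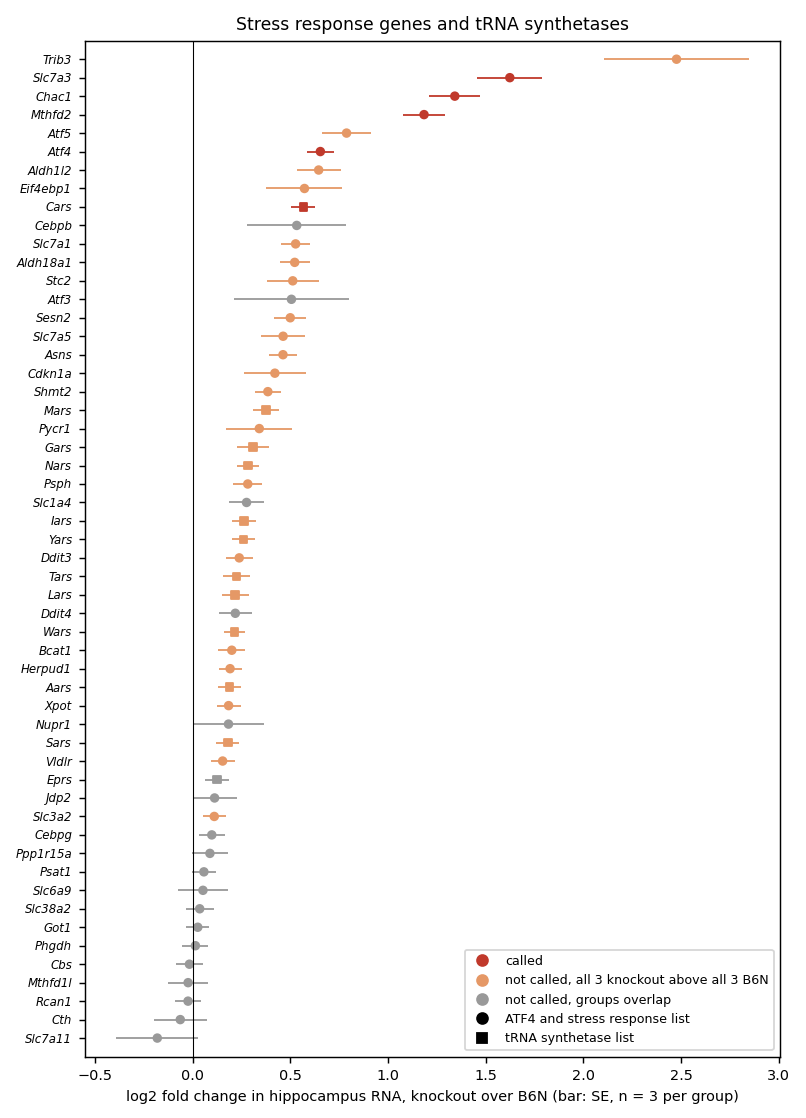
Genes of the stress response list (circles) and of the stress-induced tRNA synthetase list (squares), ordered by log2 fold change, knockout over B6N, with the SE as a bar. Called genes are red, genes whose 3 knockout libraries all lie above the 3 B6N libraries orange, and genes with overlapping groups grey; all 12 synthetases lie right of 0.

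The enzymes that charge cytosolic tRNAs with amino acids were taken as 2 lists, those known as stress-induced and the others. Of 12 stress-induced synthetases 1 was called (Cars, higher, as were 0.031% of all genes), and 11 lay higher in the knockout without overlap, against 7% of all genes. Their median log2 fold change was 0.24. Mars, for methionine, was at 70.9, 62.8 and 62.4 CPM in the knockout, against 49.3, 51.3 and 50.6 CPM in B6N (0.38 ± 0.07, adjusted p = 0.177), and it overlaps Ddit3. Nars, for asparagine, had a change of 0.28 ± 0.06 (adjusted p = 0.233) and Yars, for tyrosine, of 0.26 ± 0.06 (adjusted p = 0.324). Of 8 other cytosolic synthetases none was called, 2 lay higher and 1 lower without overlap (7% and 7.4% of all genes), and the median was 0.06. Rars, which charges arginine tRNAs and so serves n-Tr20, was at 45.4, 49.3 and 47.8 CPM in the knockout, against 45.3, 40.0 and 45.4 CPM in B6N, groups that overlapped (0.12 ± 0.07, adjusted p = 0.721). Hars, for histidine, was at 69.7, 73.3 and 65.9 CPM in the knockout, against 86.6, 76.7 and 82.5 CPM in B6N (-0.23 ± 0.07, adjusted p = 0.408), and it overlaps Hars2.

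Among 26 amino acid transporter genes Slc7a3 was the only one called, and 5 lay higher without overlap and none lower, against 7% and 7.4% of all genes, with a median of 0.06. Slc7a1, the widely used carrier of arginine and lysine, was at 80.6, 73.9 and 68.7 CPM in the knockout, against 53.3, 48.9 and 52.8 CPM in B6N. Those groups were well apart, with a change of 0.53 ± 0.07 just short of the threshold (adjusted p = 0.0742). Slc7a5, the carrier of large neutral amino acids, had a change of 0.46 ± 0.11 (adjusted p = 0.365). Of 21 genes of eIF2 kinases, eIF2 phosphatase subunits and ribosome rescue none was called, and their median was 0.04. Abce1, which splits ribosomes after termination, had the smallest p of them, at 117, 119 and 124 CPM in the knockout, against 108, 106 and 106 CPM in B6N (0.17 ± 0.05, adjusted p = 0.455).

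ATF4 binds, with C/EBP partners, sites known as C/EBP-ATF response elements. The letters TGATGNAA, a short form of that site, were looked for on both strands in RefSeq promoter windows of GRCm38.p6 (250 bases before to 50 after a gene's start). They stood in 4.51% of the windows of 27025 genes and in 2.85% of those of the 13046 tested genes with a window. Of the stress response list 12 of 37 genes with a window had a match (32.4%), of the stress-induced synthetases 5 of 7 (71.4%), and of the called genes 1 of 5, Chac1. The called genes Slc7a3, Cars and Ndnf had no window. Both lists were chosen as known stress genes, many of them ATF4 targets, so their shares are no independent evidence. The stretches of 250 bases before the start of Chac1 (called), Asns (not called, groups apart) and Slc7a11 (not called, groups overlapping) are shown to set a match beside each outcome, 5′ to 3′ on the gene's strand, with each match in capitals.
Chac1, chr2:119350992-119351241, plus strand: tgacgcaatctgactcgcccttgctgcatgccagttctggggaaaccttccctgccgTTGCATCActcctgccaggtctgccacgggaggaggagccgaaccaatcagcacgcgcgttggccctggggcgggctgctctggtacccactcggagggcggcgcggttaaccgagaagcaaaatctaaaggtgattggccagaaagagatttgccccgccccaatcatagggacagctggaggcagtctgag
Asns, chr6:7693210-7693459, minus strand: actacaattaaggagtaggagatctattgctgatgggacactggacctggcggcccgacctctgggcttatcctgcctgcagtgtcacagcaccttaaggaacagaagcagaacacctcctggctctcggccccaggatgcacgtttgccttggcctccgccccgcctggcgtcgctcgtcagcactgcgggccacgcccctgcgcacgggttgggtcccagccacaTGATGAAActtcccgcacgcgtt
Slc7a11, chr3:50443614-50443863, minus strand: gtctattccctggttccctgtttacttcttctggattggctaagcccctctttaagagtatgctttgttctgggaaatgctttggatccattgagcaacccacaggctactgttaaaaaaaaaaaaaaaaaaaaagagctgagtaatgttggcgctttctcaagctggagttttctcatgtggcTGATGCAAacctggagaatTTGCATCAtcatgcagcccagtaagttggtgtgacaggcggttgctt
The match began 193 bases before the start of Chac1 and 23 before that of Asns, and Slc7a11 had 2, beginning 66 and 47 bases before. A match is a description of the letters, and binding was not measured.

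Of the 2 genes that fell, Ndnf (ENSMUSG00000049001.5, chr6:65671611-65712323) encodes a secreted factor that marks neurogliaform interneurons. It was at 25.0, 21.4 and 24.5 CPM in knockouts 1 to 3, against 44.5, 39.9 and 46.9 CPM in B6N 1 to 3. The highest knockout library was far below the lowest B6N library, and the fall was 1.85-fold, or -0.89 ± 0.09 (SE) as a log2 fold change (adjusted p = 0.0101, quasi-likelihood test of edgeR, Benjamini-Hochberg adjustment). In bulk tissue, fewer cells of a type and less RNA per cell cannot be told apart. Col19a1 (ENSMUSG00000026141.13, chr1:24257683-24587922), a collagen made by some neurons and known for its part in inhibitory synapse formation, was at 18.2, 16.4 and 18.2 CPM in the knockout, against 33.6, 30.9 and 30.9 CPM in B6N. Both groups were tight and separate, and Col19a1 fell 1.81-fold (-0.86 ± 0.08, adjusted p = 0.00923).

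Of 27 markers of inhibitory interneurons, Ndnf was the only one called, and 23 had a negative change. Without overlap 11 lay lower and none higher, where 7.4% of all genes tested lay lower and 7% higher. The median was -0.28, and between -0.31 and -0.23 under the alternatives tried. Their summed level was 1703, 1573 and 1634 CPM in the knockout, against 2053, 1827 and 1962 CPM in B6N. Cort and Crhbp, also made by interneurons, are not in this list, and both lay higher without overlap, as given below. The list was chosen with earlier results of these data known, so its direction is no independent evidence. Gad2, an enzyme that makes GABA, was at 134, 122 and 137 CPM in the knockout, against 216, 188 and 177 CPM in B6N, groups without overlap (-0.56 ± 0.08, adjusted p = 0.0976). Gad1, the other GABA-synthesizing enzyme, was at 271, 266 and 278 CPM in the knockout, against 331, 333 and 323 CPM in B6N (-0.28 ± 0.06, adjusted p = 0.249). Reln, which encodes the secreted protein reelin of neurogliaform and other cells, had a change of -0.31 ± 0.06 (adjusted p = 0.216). With Ttr as a covariate, a setting chosen after seeing the data, Gad2 passed the test (-0.60, adjusted p = 0.00886). Of the classic class markers, chosen after their values were seen, Htr3a had a change of -0.71 ± 0.17 and Pvalb of -0.25 ± 0.08, both without overlap, while Sst (-0.27 ± 0.17) and Vip (-0.32 ± 0.19) overlapped. None of these 4 passed the test of edgeR, and by DESeq2 only Htr3a passed (adjusted p = 0.0159). DESeq2 also called Gad2 (adjusted p = 1.68e-06), Gad1 (0.0017) and Reln (0.00838) lower.

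Cort was higher in the knockout, while most peptide genes had a negative change. Cort (ENSMUSG00000028971.4, chr4:149125034-149126763), which encodes cortistatin, a peptide of interneurons related to somatostatin, was at 5.12, 6.43 and 4.94 CPM in the knockout, against 1.97, 1.89 and 1.86 CPM in B6N. It rose 2.88-fold (1.53 ± 0.15, adjusted p = 0.0101), and the lowest knockout library lay far above the highest B6N library. Of 29 tested neuropeptide and prohormone genes, Cort was the only one called and 18 had a negative change. Without overlap 2 lay higher and 3 lower, shares near the 7% and 7.4% of all genes, and the median was -0.13. Bdnf, a neurotrophin that neurons make with activity, was the other gene that lay higher, at 42.8, 63.2 and 51.6 CPM in the knockout, against 37.4, 36.3 and 37.4 CPM in B6N (0.50 ± 0.13, adjusted p = 0.381). Scg5, a chaperone of prohormone convertase, was at 106, 99.1 and 103 CPM in the knockout, against 145, 128 and 139 CPM in B6N (-0.41 ± 0.06, adjusted p = 0.105). Pnoc, the precursor of nociceptin, was at 5.09, 5.74 and 6.09 CPM in the knockout, against 8.84, 8.73 and 7.84 CPM in B6N (-0.59 ± 0.12, adjusted p = 0.233).

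Outside these lists, the genes with the smallest p that were not called were mixed in function. Higher in the knockout were Ddr2, a collagen receptor, at 24.6, 20.3 and 24.1 CPM, against 16.1, 12.9 and 12.8 CPM in B6N (0.72 ± 0.11, adjusted p = 0.128), and Adar, an RNA editing enzyme whose gene overlaps Chrnb2, at 168, 174 and 174 CPM, against 134, 137 and 140 CPM in B6N (0.33 ± 0.05, adjusted p = 0.138). Lower in the knockout was Garnl3, a Rap GTPase activating protein by its homology, at 23.2, 20.3 and 22.1 CPM, against 31.1, 36.4 and 38.7 CPM in B6N (-0.69 ± 0.09, adjusted p = 0.0704). These groups did not overlap in any of the 3 genes. Ache, which breaks down acetylcholine, had a change of -0.39 ± 0.06 (adjusted p = 0.135), Igf1, a growth factor, of -0.77 ± 0.13 (adjusted p = 0.176), and Cplx1, a complexin of vesicle release, of -0.43 ± 0.08 (adjusted p = 0.185). Sh2d3c, Nacc2, Cxcl14 and Zfp385a, with Gad2 and Scg5 given above, completed the 10 genes of smallest p that were lower and not called. They were not picked by the size of the fall. The changes of Sh2d3c, Nacc2, Cxcl14 and Zfp385a lay between -0.61 and -0.36.

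No marker of glia or of the hippocampal fields was called by edgeR. DESeq2 called the glial genes Mog (adjusted p = 0.0169), Mbp (0.0263), Cnp (0.0491) and Olig1 (0.0305) lower. All 15 markers of oligodendrocytes and myelin had a negative change, 5 of them without overlap (7.4% of all genes lay lower), with a median of -0.39 and a sum of 5063, 6199 and 5150 CPM, against 7114, 8349 and 6058 CPM in B6N, which overlapped. Mog, a protein of the myelin surface, was at 53.4, 66.2 and 56.1 CPM in the knockout, against 79.5, 90.4 and 70.4 CPM in B6N (-0.45 ± 0.11, adjusted p = 0.362). Of 12 markers of oligodendrocyte precursors 6 lay lower without overlap (median -0.18), of 16 astrocyte markers 5 (median -0.11) and of 18 microglia markers 2 (median -0.14), and none lay higher. The microglia count is near the 7.4% of all genes. The 16 dentate granule cell markers all had a positive change, 2 without overlap where 7% of all genes lay higher (median 0.23), with a sum of 774, 1172 and 954 CPM in the knockout, against 581, 930 and 943 CPM in B6N. For 10 CA1 markers the median was -0.18, with none free of overlap. Sums of CA1 markers were 986, 582 and 764 CPM in the knockout, against 865, 679 and 960 CPM in B6N. The dentate and CA1 sums thus varied within both groups. Those of 15 CA2 and CA3 markers varied less, at 1475, 1434 and 1282 CPM in the knockout, against 1527, 1363 and 1386 CPM in B6N.

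Markers of neighbouring tissues and blood varied within the groups. Choroid plexus markers summed to 2667, 324 and 6841 CPM in knockouts 1 to 3, against 4670, 500 and 377 CPM in B6N 1 to 3, with none of 17 free of overlap. Their median was 0.80, and it was below 0 (-0.31) in 1 of the alternatives tried. Thalamus and habenula markers had a median of -0.85, and of -0.24 at the nearest to 0 under the alternatives tried, with 3 of 13 lower without overlap (7.4% of all genes). Markers of red blood cells had a median of -0.80 with all 5 overlapping. The part that glia, dentate gyrus, choroid plexus or thalamus RNA had in the differences of single genes was not tested.

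**Figure D4:**
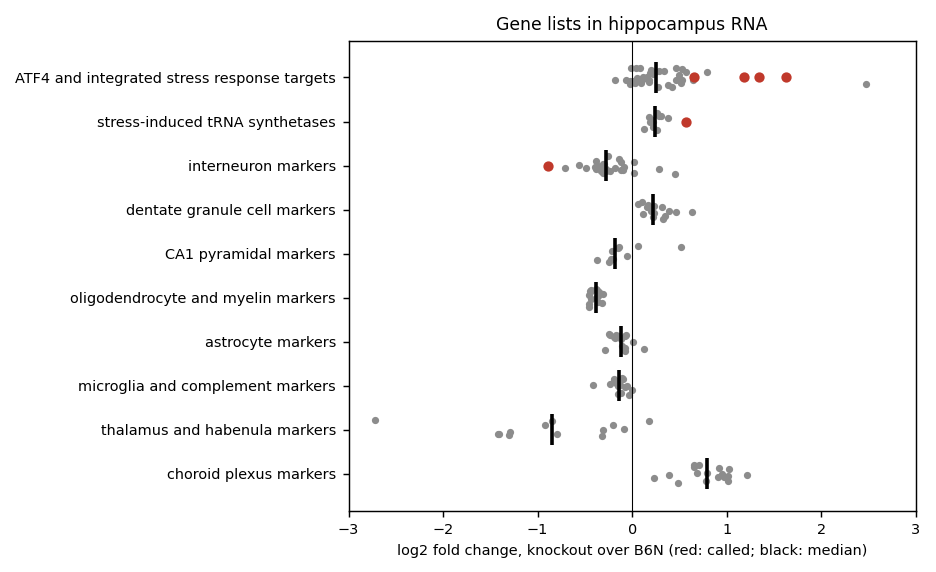
Each point is a gene of a list in hippocampus RNA, placed by its log2 fold change, knockout over B6N, with called genes in red and the list's median as a black bar; points are spread vertically only to separate them. The stress response and synthetase medians lie at 0.26 and 0.24, the interneuron median at -0.28 and the myelin median at -0.39, while thalamus and choroid plexus points spread widely.

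Lists of synapse, channel and energy genes had medians close to that of all genes. None of 48 glutamate receptor and excitatory synapse genes was called, and the list's median, 0.01, changed sign under 3 alternatives. Grin2d, an NMDA receptor subunit found in interneurons, was at 14.4, 12.2 and 11.6 CPM in the knockout, against 19.95, 22.6 and 17.2 CPM in B6N (-0.65 ± 0.12, adjusted p = 0.202). Among 61 channel genes (median -0.03, of either sign over the alternatives) Kcnj10, a potassium channel of astrocytes, had the smallest p, at 162, 188 and 172 CPM in the knockout, against 226, 248 and 210 CPM in B6N (-0.39 ± 0.08, adjusted p = 0.245). Of 25 genes of GABA-A receptors and inhibitory synapses none was called (median -0.07). Cytosolic ribosomal protein genes had a median of 0.00 over 79 genes, with either sign over the alternatives and no call. Nuclear genes of oxidative phosphorylation had a median of -0.05 over 73 genes, also with no call. Of these 73 genes 56 had a negative change, and the median stayed below 0 under the alternatives tried (-0.11 to -0.01).

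No gene of sterol synthesis or of the clock was called. Of 30 sterol and fatty acid synthesis genes 13 lay lower and none higher without overlap, where 7.4% of all genes lay lower and 7% higher, and the median was -0.12. Scd1, a fatty acid desaturase, was at 115, 145 and 130 CPM in the knockout, against 172, 195 and 155 CPM in B6N (-0.42 ± 0.11, adjusted p = 0.379), and Srebf1, a transcription factor of lipid synthesis that overlaps Rai1, had a change of -0.31 ± 0.08 (adjusted p = 0.361). Myelin-making cells are rich in these enzymes, and the median of the myelin markers was -0.39, as given above. The part of myelin RNA in the values of these enzymes was not tested. Of 22 clock genes 7 lay lower and 1 higher without overlap, against the same shares of all genes, and 14 had a negative and 8 a positive change (median -0.10). Dbp, a clock output factor that overlaps Sphk2, was at 49.4, 47.2 and 46.6 CPM in the knockout, against 56.3, 62.0 and 66.2 CPM in B6N (-0.37 ± 0.07, adjusted p = 0.231), and the hour of dissection is not given in the sources used here. Immediate early genes, which neurons switch on with activity, had a median of 0.00 over 36 genes, of either sign over the alternatives, with none called.

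The 8 called genes were then looked up in forebrain RNA, labelled batch 1 (4 knockout, 4 B6N), and in ribosome footprints of hippocampus (3 and 3 libraries). All 8 had the same sign in both. In forebrain 7 were called in the same direction, all but Col19a1, where 2.87% of 24431 genes were called (1.58% higher, 1.29% lower). In footprints 6 were called in the same direction, all but Ndnf and Col19a1, where 5.35% of 13227 genes were called (2.19% higher, 3.16% lower). Ndnf averaged 16.7 ± 0.87 CPM in knockout forebrain and 21.6 ± 2.102 CPM in B6N forebrain (SD, n = 4 each; log2 fold change -0.37 ± 0.07, adjusted p = 0.00173), and 46.4 ± 5.63 CPM in knockout footprints against 55.3 ± 10.9 CPM in B6N footprints (SD, n = 3 each; -0.25 ± 0.14, adjusted p = 0.332). Atf4 had a change of 0.71 ± 0.04 in forebrain and 1.38 ± 0.16 in footprints. The difference of these effects, RNA minus footprints, was not called: -0.70 ± 0.17 (adjusted p = 0.0878).

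**Figure D5:**
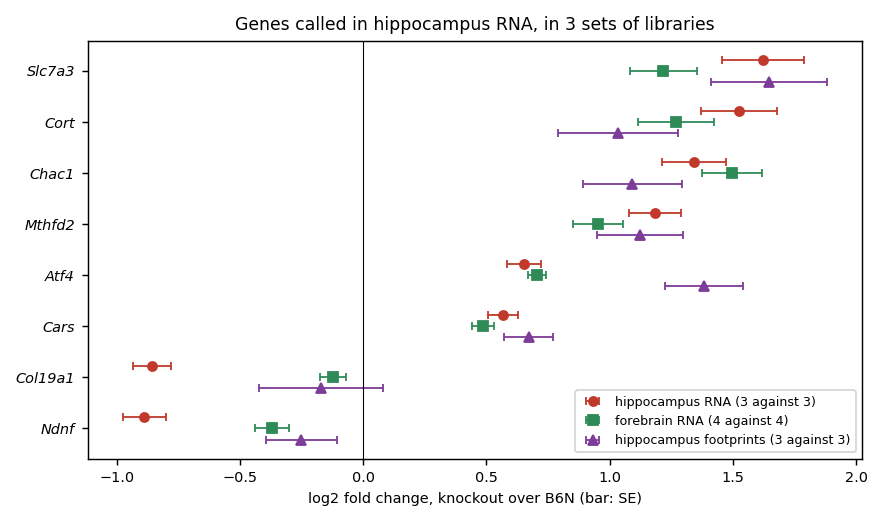
The log2 fold change, knockout over B6N, of each called gene in hippocampus RNA (circles), forebrain RNA (squares) and hippocampus footprints (triangles), with the SE as a bar. The 6 genes that rose lie right of 0 in all 3 sets, and Col19a1 lies at -0.86 in hippocampus RNA, -0.12 in forebrain and -0.17 in footprints.

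Genes called in forebrain mostly had the same sign in hippocampus, with medians nearer to 0. Of 387 genes called higher in forebrain, 378 were tested in hippocampus RNA, 317 of them had a positive change (83.9%) and 141 lay higher without overlap (37.3%, against 7% of all genes). Their median log2 fold change was 0.12 in hippocampus and 0.20 in forebrain. Of 315 called lower in forebrain, 303 were tested, 254 had a negative change (83.8%) and 100 lay lower without overlap (33.0%, against 7.4% of all genes), with medians of -0.14 in hippocampus and -0.21 in forebrain. The forebrain medians are of genes chosen by those same values, and part of the forebrain is hippocampus.

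The difference between the effects in hippocampus and forebrain was tested over 14 libraries and called for 2 of 25896 genes (0.00772%), 1 in each direction (0.00386% each), with 1562 at an unadjusted p under 0.05 (6.03%). For Col19a1 it was -0.72 ± 0.10 (adjusted p = 0.00638, quasi-likelihood test of edgeR, Benjamini-Hochberg adjustment). Its forebrain levels were 29.9, 35.5, 33.5 and 34.8 CPM in the knockout and 36.1, 33.6, 37.5 and 38.9 CPM in B6N, groups that overlapped. The other gene, Tmem181b-ps, belongs to a cluster of near-identical copies and is uncertain. For Ndnf the difference was -0.51 ± 0.11 (adjusted p = 0.248). Tissue, library kit and counting method changed together between these sets and cannot be told apart. RNA and footprint effects in hippocampus differed for 0 of 15202 genes by edgeR, with 2251 at an unadjusted p under 0.05 (14.8%), and DESeq2 called 494.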

How the data were processed

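For hippocampus RNA and footprints the authors deposited whole-number counts of reads per gene, and the footprints were made with a ribosome profiling protocol, per the labels' protocols. For forebrain the authors deposited estimated counts per transcript, which were summed per gene and rounded here. Build mm10 and the tools Bowtie2 2.2.3, featureCounts, HISAT2 2.1.0 and kallisto 0.42.4 are listed, per the submitters' processing notes, without saying which served which files. Hippocampus RNA was purified on poly(dT) with a TruSeq v2 kit and forebrain RNA was depleted of ribosomal RNA with a stranded kit, per the labels' protocols.

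Groups came from the sample titles. Genes passed filterByExpr of edgeR 4.0.16 (minimum count 10), and TMM scaling and the robust quasi-likelihood test in R 4.3.3 were used, with p-values adjusted over all tested genes (Benjamini-Hochberg) and a threshold of 0.05. The SE is the absolute log2 fold change divided by the square root of F. CPM is not corrected for gene length, so levels of different genes were not compared. The 5 comparisons were knockout against B6N in each of the 3 sets and the differences of these effects between tissues and between assays. DESeq2 1.42.0, limma 3.58.1 voom, other scalings and filters, a replicate block and leaving out each library were alternatives.

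On simulated counts for 19352 genes, 53 of 100 genes changed 1.5-fold and 83 of 100 changed 2-fold were called in the hippocampus RNA comparison, with 10 false calls. The changed genes had a mean above 1 CPM, and counts were drawn independently for each gene, with a spread that followed its level. Both sets of 100 genes were changed in the same counts, and the adjusted threshold is easier to pass when many genes change. The simulation holds no differences of dissection or sex shared by many genes, so its rates need not hold for the real libraries.

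Genes were named by rule: Atf4, Slc7a3, Ndnf, Cadm3 and Aim2, up to 12 genes per direction by smallest p with a mean of at least 1 CPM, and up to 4 genes per list. Trib3, Aldh1l2, Shmt2, Ddit3, Slc7a11, Htr3a, Pvalb, Sst, Vip and Snx12 were named after their values were seen, as were Ackr1, Gh, the library markers and Tmem181b-ps. The members and lists were chosen with earlier results of these data known. Promoter sequences are from RefSeq, build GRCm38.p6.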

Additional observations from a re-analysis of the deposited data

Results flagged for a closer look

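For Col19a1, the effect of the knockout in hippocampus RNA minus that in forebrain RNA was -0.72 on the log2 scale, and the test of this difference passed its threshold (adjusted p = 0.00638, quasi-likelihood test of edgeR). All 3 knockout hippocampus libraries lay below all 3 B6N ones, whereas the forebrain groups overlapped. For Tmem181b-ps, a pseudogene with near-identical copies, the same difference was 0.99 (adjusted p = 0.0321): its hippocampus groups overlapped, at 114, 105 and 107 CPM in the knockout and 103, 117 and 107 CPM in B6N, while its forebrain effect was -0.98. Reads of such copies can be split between them, so its value is uncertain. Tissue, kit and counting differ together in both cases and cannot be told apart.

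In forebrain, Chac1 stood at 8.18 CPM in 1 knockout library, far from the other 3 knockout libraries (7.30, 7.35 and 7.30 CPM) relative to their range. The gap is measured against Dixon's 95% critical value, which about 1 in 20 groups would pass by chance. The library lies on the same side of B6N as the others.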

How the results depend on the processing

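None of the 154 log2 fold changes recomputed for single genes reversed. Not among them were Xist, Ttr and several markers of sex, choroid plexus, ependyma, fibroblasts, red blood cells, hippocampal fields and thalamus. The absence of reversals does not cover these genes, some of which are unstable. For the choroid plexus gene Aqp1 the difference of mean log2 CPM was 1.23 over all libraries. It was 0.26 between those high in Ttr and -1.12 between those low in Ttr. Over the alternatives the list median changed sign 1 time for choroid plexus, 4 times for ependyma and 1 time for meninges and fibroblasts. For red blood cells and thalamus its sign did not change. The 8 hippocampus RNA calls were all kept with other scalings, a minimum count of 100, no robust step, limma voom and protein-coding genes alone; Ttr as a covariate, added after seeing the data, gave 11 with all 8 among them. Hippocampus RNA had 135 calls without the low-count filter, 134 by DESeq2 and 0 to 10 with 1 library left out. Forebrain had 1138 without the filter and 422 to 1288 with 1 library left out, against 702. Footprints had 1065 by DESeq2 and 32 to 916 with 1 library left out, against 708. Tissue differences numbered 8 with DESeq2 size factors, 7 without the filter, 30 by DESeq2 and 1 to 36 with 1 library left out, against 2. Assay differences numbered 38 without the filter, 494 by DESeq2 and 0 to 301 with 1 library left out, against 0. The cause of these moves was not tested.

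Same-numbered libraries deviated together with correlations of 0.07, 0.13 and -0.41, and differently numbered ones with correlations between -0.48 and 0.50. The values show no pairing by number. They cannot exclude one, since unequal neighbouring tissue also enters these deviations. With the replicate block there were 6 hippocampus RNA calls, 680 in forebrain, 630 in footprints, 2 tissue differences and 4 assay differences.

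In the simulated counts, at 3 libraries a group, 53 of 100 genes changed 1.5-fold were called, a rate that need not hold for the real libraries. Genes of few counts carry wide errors.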

Other observations

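Genes that fold proteins in the endoplasmic reticulum and heat shock genes had a median log2 fold change of 0.10 over 27 genes, with 7 higher and 1 lower without overlap in the knockout (7% and 7.4% of all genes) and none called. Of 24 genes of mTORC1 inhibitors and growth factor signalling none was called (median 0.02). For 24 interferon response genes the median was 0.08 and for 20 glucocorticoid response genes 0.09, with none called.

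Crhbp, which binds corticotropin-releasing hormone and is made by interneurons, is not in the interneuron list. It was at 25.0, 23.6 and 21.7 CPM in the knockout, against 16.0, 12.1 and 16.6 CPM in B6N, without overlap (0.66 ± 0.12, adjusted p = 0.202 by edgeR). DESeq2 called Crhbp higher (adjusted p = 0.00052). Cnr1, the cannabinoid receptor of another interneuron class, had a change of -0.38 ± 0.10 (adjusted p = 0.376 by edgeR), and DESeq2 called it lower (adjusted p = 0.0313). Both were named after their values were seen.

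Prl, the prolactin gene of the pituitary, was at 32.5, 0.57 and 13.5 CPM in knockouts 1 to 3, against 0.15, 0.70 and 0.14 CPM in B6N 1 to 3. Its knockout libraries overlapped B6N, and it was called by DESeq2 but not by edgeR (adjusted p = 0.576).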
